A study of Mus musculus and Homo sapiens with 22 samples.

Results

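Of the 25456 N6-methyladenosine (m6A) sites listed for mouse embryonic stem cells (mESCs) of wild type (WT), 571 lay in intronless coding genes, that is, genes whose longest coding transcript has a single exon. A site counted when it fell in that exon, on its strand, and in the exon of no other gene. The 571 sites came from 121 of 1481 single-exon coding genes, whereas 23498 sites lay in multi-exon coding genes. Another 39 sites in 6 single-exon genes also fell in exons of a second gene and were left out. Among the 121 genes, 19 also have a spliced coding transcript in the annotation.

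The sites came from miCLIP2, in which UV light fixes an m6A antibody to the RNA and reverse transcription stops beside the fixed base, and they were predicted from the miCLIP2 peaks by the classifier m6Aboost. The list pools 3 replicates of poly(A)+ RNA from WT mESCs and holds 1 prediction score per site, so it gives no read depth and no spread between replicates. RNA-seq counts were used for 3 WT libraries and 3 libraries of mESCs with a knockout (KO) of Mettl3, which encodes the catalytic methyltransferase. Both lines came from an earlier publication, carried no treatment that the labels name and were grown in serum with LIF, and the KO is represented by a single line. Site lists of HEK293T, a human embryonic kidney line, and of mouse heart were set beside the mESC list.

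m6A is written on nascent mRNA by a methyltransferase complex that prefers the motif DRACH, where D is any base but C, R is A or G, H is any base but G, and the A before the C is methylated. In spliced mRNA the mark is known for its accumulation in long exons and around the stop codon. Exon junction complexes, which splicing leaves just upstream of exon junctions, are known to keep the mark away from short exons. A single-exon gene has no exon junction in any part of its transcript, which makes it a natural contrast.

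The 21-nt windows listed here show the highest-scoring site in the single-exon genes with the most sites, as the clearest examples of the positions counted here, and are read 5′ to 3′ from the GENCODE transcripts (GRCm38). The capitals mark the 5 bases centred on the methylated A.
Irf2bpl, coding sequence, chr12:86882381-86882401, minus strand: acctccagGAACTggagcctt
Fzd7, coding sequence, chr1:59483398-59483418, plus strand: cgctgcgaGAACTtcccagtg
Sox2, 3′ UTR, chr3:34651653-34651673, plus strand: ggggaatcGGACCatgtatag
Cldn4, 3′ UTR, chr5:134945767-134945787, minus strand: gtgactttGGACTctggagtg
Epop, 3′ UTR, chr11:97627955-97627975, minus strand: agatccaaGGACTggcgtccg
Sephs2, coding sequence, chr7:127273542-127273562, minus strand: attggcatGGACTcctgcgtc
Zfp646, coding sequence, chr7:127883207-127883227, plus strand: aatgggaaAGACTgtcacatt
Sox11, coding sequence, chr12:27341344-27341364, minus strand: gtggataaGGACCtggattcc
Rbm15b, coding sequence, chr9:106884839-106884859, minus strand: aaagctaaAGACTctgtcaga
Fam43a, coding sequence, chr16:30601416-30601436, plus strand: catctggaGGACTgcctggag
Ier5l, coding sequence, chr2:30472878-30472898, minus strand: cgacagccGGACTcctcggag
Of these 11 windows, 8 lay in the coding sequence and 3 in the 3′ UTR. The pentamer was GGACT in 5 of them, GAACT in 2, GGACC in 2 and AGACT in 2. Ier2, the other of the 12 genes with the most sites, is described without a window.

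The 12 genes with the most sites held 160 sites, or 28.0% of the 571. Irf2bpl, a RING-type transcriptional coregulator, and Fzd7, a Wnt receptor of the Frizzled family, each held 17 sites. Sox2, a core pluripotency transcription factor, held 15. The claudin gene Cldn4, which encodes a tight junction protein, and Epop, which encodes a partner of Polycomb repressive complex 2, held 14 each. Sephs2, the selenophosphate synthetase of selenoprotein synthesis, and the zinc finger gene Zfp646 held 13 each. Sox11, Rbm15b and Fam43a held 12 each, Ier5l held 11 and Ier2 held 10. Rbm15b itself encodes a subunit of the m6A methyltransferase complex.

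The sites of several of these genes were spread widely. Positions were counted from the first base of the stop codon. In Irf2bpl, 5 sites lay in the 5′ UTR, 11 in the coding sequence and 1 in the 3′ UTR, and they ran from 2825 nt before to 3 nt after the stop codon. In Fzd7 the sites ran from 2092 nt before to 320 nt after the stop codon, and 10 of 17 were coding. All 12 sites of Rbm15b were coding and lay 128 to 2114 nt before the stop codon, although its 3′ UTR is 3389 nt long. Ier2 showed the opposite layout, with 2 coding sites and 8 in the 3′ UTR. Sox2 was split between 6 coding sites and 9 in the 3′ UTR. The chosen Zfp646 transcript starts inside its coding sequence in the annotation, and both Zfp646 and Rbm15b also have spliced coding transcripts.

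**Figure D1:**
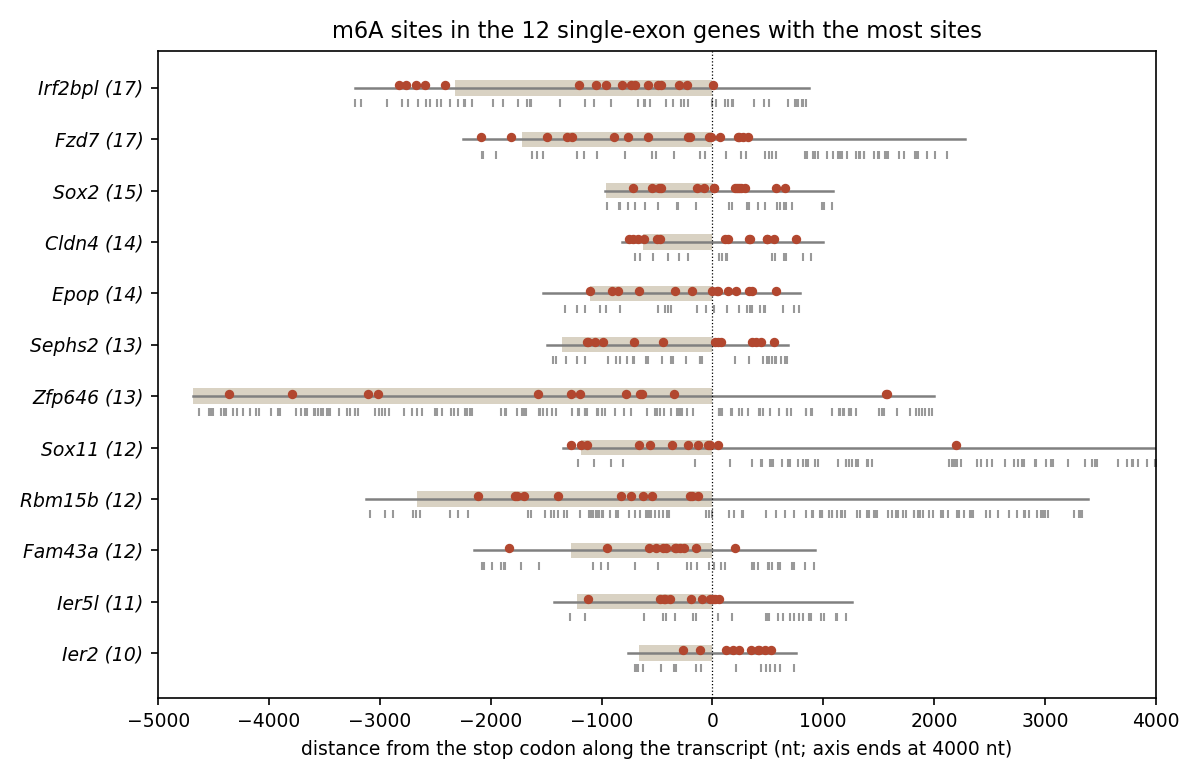
Positions of m6A sites (red points) along the 12 single-exon genes with the most sites, in nt from the stop codon. Grey lines are transcripts, beige boxes coding sequences and grey ticks DRACH motifs that were not listed as sites. In Irf2bpl, Fzd7, Zfp646 and Rbm15b the points reach more than 2000 nt upstream of the stop codon, and in Ier2 most lie after it. The axis ends before the end of Sox11.

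A high share of the available motifs was used in several of these genes. Cldn4 had 29 DRACH motifs, of which 13 (44.8%) were sites. Ier2 had 26, of which 10 (38.5%) were sites, and Sox2 and Epop had 37 each, of which 13 (35.1%) were sites. At the other end, 9 of 137 motifs were sites in Sox11 (6.57%), 13 of 149 in Zfp646 (8.72%) and 12 of 128 in Rbm15b (9.38%), which have the longest transcripts of the 12. Of the 66 GGACT motifs in the 12 genes, 41 were sites. All 5 GGACT motifs of Ier2 and all 3 of Sox2 were sites, against 4 of 11 in Sox11.

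Over all 571 sites, 521 (91.2%, 95% Wilson interval 88.6 to 93.3) stood at a DRACH motif, and 50 did not. The share in multi-exon genes was 92.9% (92.5 to 93.2). All intervals cover counting error only, and the sites of 1 gene share their transcript. Of the 50 sites outside DRACH, 28 matched it except for a G at the last base, such as GGACG (18 sites) and GAACG (6 sites), and 11 stood at GTACT. The most frequent pentamer at the 571 sites was GGACT (156 sites, 27.3%), followed by GAACT (83 sites, 14.5%), GGACA (67 sites, 11.7%) and GGACC (66 sites, 11.6%). In multi-exon genes GGACT made up 22.7% of sites and GGACC 7.19%. Single-exon sites had a median prediction score of 0.719, with quartiles of 0.626 and 0.806, and multi-exon sites one of 0.748, with quartiles of 0.643 and 0.837.

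Genes held a median of 4 sites, with 23 genes at 1 site, 48 at 2 to 4 and 50 at 5 or more. Neighbouring sites of a gene lay a median of 110 nt apart (quartiles 45 and 277 nt), and those of multi-exon genes 130 nt apart along the spliced transcript (45 and 360 nt).

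The first comparison asked where in the transcript the sites fell. Single-exon genes carried 360 sites in the coding sequence (63.0%, 59.0 to 66.9), 180 in the 3′ UTR (31.5%, 27.8 to 35.4) and 31 in the 5′ UTR (5.43%, 3.85 to 7.60). In multi-exon genes 49.5% of sites were coding, 47.9% lay in the 3′ UTR and 2.6% in the 5′ UTR. A coding site was present in 102 of the 121 genes, and in 46 genes every site was coding. In 73 genes, 232 sites (40.6%) lay over 400 nt before the stop codon.

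Since transcripts differ in how many motifs they offer, sites were next counted per DRACH motif in genes that passed the filter on low RNA-seq counts. This filter kept 391 single-exon genes, among them all 121 with sites, and 13051 multi-exon genes. In single-exon genes 521 of 17176 motifs were sites (3.03%, 2.79 to 3.30). The share was 5.25% in the coding sequence (323 of 6155, 4.72 to 5.83), 1.86% in the 3′ UTR (1.60 to 2.16) and 1.49% in the 5′ UTR (1.03 to 2.14). The coding sequence of multi-exon genes had 2.15% (2.11 to 2.19), their 3′ UTR 2.44% (2.40 to 2.49) and their 5′ UTR 1.17% (1.08 to 1.27). Without matching on expression, the order of coding sequence and 3′ UTR was thus the other way round in the 2 kinds of gene.

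Around the stop codon the profile of single-exon genes was broad. The shares of this profile were not matched on expression. From 600 nt before to 100 nt after the stop codon, 5.25% to 7.34% of motifs were sites in each bin. The highest value stood in the last 100 nt before the stop codon (7.34%, 5.61 to 9.55), and 4.14% (3.26 to 5.25) were still sites 600 to 1000 nt upstream. Multi-exon genes had 1.79% (1.71 to 1.88) in that upstream bin and rose to 8.26% (7.95 to 8.58) in the first 100 nt after the stop codon. The order was already reversed in those first 100 nt, where single-exon genes had 5.77% (4.33 to 7.66). From 100 to 200 nt after the stop codon the shares were 3.64% (2.46 to 5.35) in single-exon genes and 7.21% (6.90 to 7.54) in multi-exon genes. Beyond 600 nt into the 3′ UTR single-exon genes fell under 1%, to 0.874% (0.511 to 1.49) at 600 to 1000 nt and 1 site in 1980 motifs beyond 2000 nt.

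**Figure D2:**
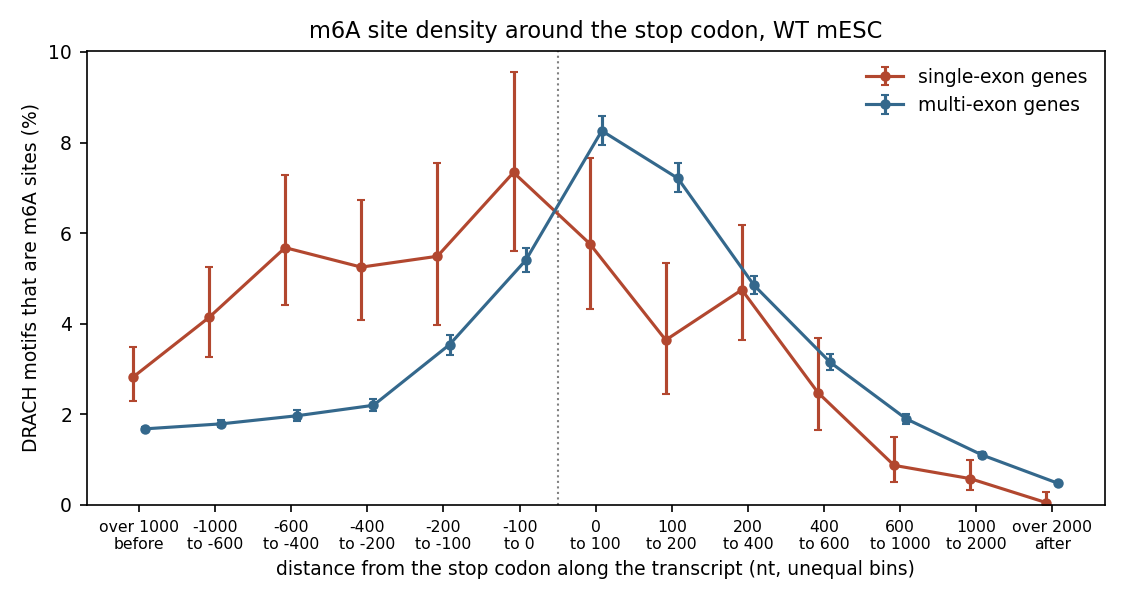
Share of DRACH motifs that are m6A sites (y axis, %) by distance from the stop codon (x axis, nt, bins of unequal width) in single-exon (red) and multi-exon (blue) genes that passed the filter on low counts. Error bars are 95% Wilson intervals. The shares are not matched on expression. The multi-exon curve peaks at 8.26% just after the stop codon, and the single-exon curve stays above it at every bin before the stop codon.

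Both ends of the single-exon transcripts were poor in sites. The share was 0.975% (0.417 to 2.26) in the first 100 nt, rose to 4.40% (3.53 to 5.46) at 400 to 700 nt and reached 5.45% (4.66 to 6.38) at 1000 to 1500 nt from the transcript start. It was 0.386% (0.131 to 1.13) in the last 100 nt and 1.51% (0.866 to 2.62) in the 100 nt before them. Within the coding sequence the share was 3.95% (3.15 to 4.95) over the first part of its length, 5.05% (4.18 to 6.10) over the middle part and 6.44% (5.51 to 7.51) over the last part, with 3 parts of equal length, against 1.72%, 1.83% and 2.86% in multi-exon genes.

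The second comparison was made at like expression, because a site is called more readily in an abundant transcript. The WT level of a gene was its mean WT CPM (counts scaled to a common library size) per kb of merged exons, and the multi-exon share of each level class was weighted by the motifs that single-exon genes had in that class. At matched level 1.23% of multi-exon motifs were sites, and the single-exon share was 2.46 times as high (2.26 to 2.68, from the interval of the single-exon share). The ratio was 3.93 (3.53 to 4.37) in the coding sequence, where 1.34% of multi-exon motifs were sites at matched level. It was 1.51 in the 3′ UTR, where the matched multi-exon share was 1.24%, and 2.45 in the 5′ UTR. Each region was weighted by its own single-exon motifs, so the matched multi-exon shares of coding sequence and 3′ UTR cannot be ranked against each other. Within 400 nt of the stop codon on either side, the single-exon share was 1.85 times the matched multi-exon share, and 1.36 times that of last exons. Without the 10 single-exon genes with the most sites the overall ratio was 2.16 and the coding ratio 3.5.

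The coding ratio depended on which multi-exon exons stood beside the single-exon genes. Internal coding exons of up to 200 nt had sites at 0.158% of motifs at matched level, and the single-exon coding share was 33.3 times as high. The ratio was 7.15 for internal exons of 200 to 400 nt, 1.29 for those over 400 nt and 1.39 for last exons. By distance to the nearest exon junction, the matched multi-exon share rose from 0.230% within 50 nt to 0.803% at 50 to 100 nt, 3.26% at 100 to 150 nt and 5.15% at 150 to 200 nt. It was 6.01% at 200 to 300 nt, 5.89% at 300 to 400 nt and 3.94% beyond 400 nt. The single-exon coding share of 5.25% was thus 1.02 times that of multi-exon motifs 150 to 200 nt from a junction, and 1.12 times that of all motifs over 200 nt away (4.67%). Without mitochondrially encoded and histone genes, which was added after seeing the data, the ratio was 56.3 for internal exons of up to 200 nt, 1.57 for those over 400 nt, 1.67 for last exons and 1.36 for motifs over 200 nt from a junction. These ratios are descriptions of pooled lists, with no test.

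**Figure D3:**
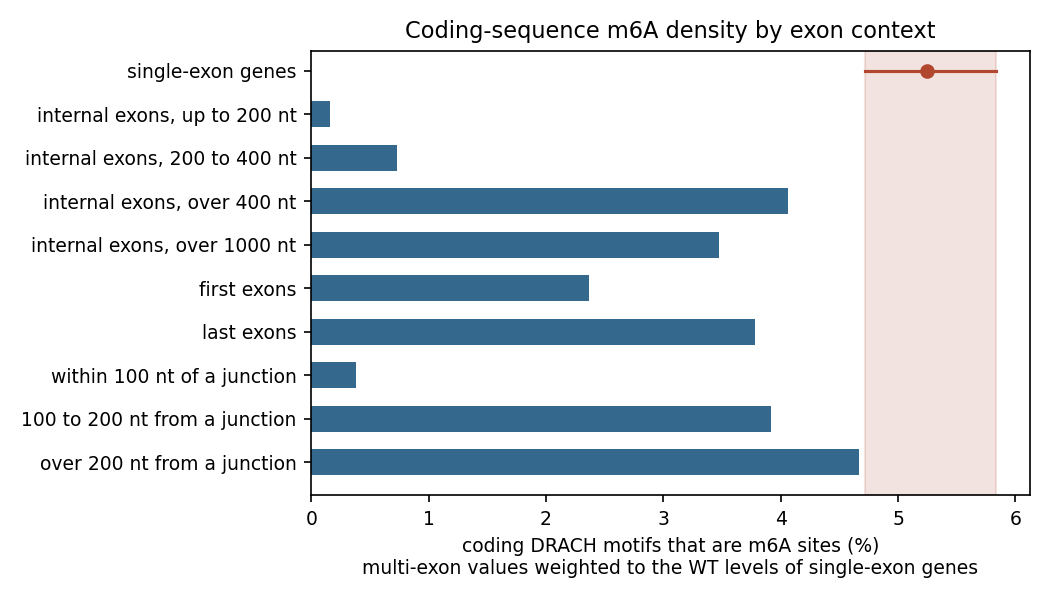
Share of coding DRACH motifs that are m6A sites (x axis, %) in single-exon genes (red point, 95% Wilson interval shaded) and in multi-exon genes by exon type, exon length or distance to an exon junction (blue bars, weighted to the WT levels of single-exon genes). Short internal exons and motifs within 100 nt of a junction stay under 1%, whereas motifs over 200 nt from a junction reach 4.67%.

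The same contexts were then compared within each level class. At a WT level of 1 to 4 CPM per kb, 4.27% (3.41 to 5.32) of single-exon coding motifs were sites, against 3.56% (3.33 to 3.80) of multi-exon coding motifs over 200 nt from a junction and 0.0280% in internal exons of up to 200 nt. At 4 to 16 CPM per kb the values were 15.4% (13.4 to 17.6), 11.7% (11.3 to 12) and 0.239%. At 16 to 64 CPM per kb they were 17.4% (13.7 to 21.7), 16.4% (15.7 to 17.2) and 0.775%. Under 1 CPM per kb, 4 of 2700 single-exon coding motifs were sites (0.148%). At 64 or more CPM per kb the order changed, with 3.93% (2.08 to 7.30) in single-exon genes and 14.4% (12.3 to 16.8) far from junctions. That class held 10 single-exon genes, of which 7 were mitochondrially encoded and had no site.

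**Figure D4:**
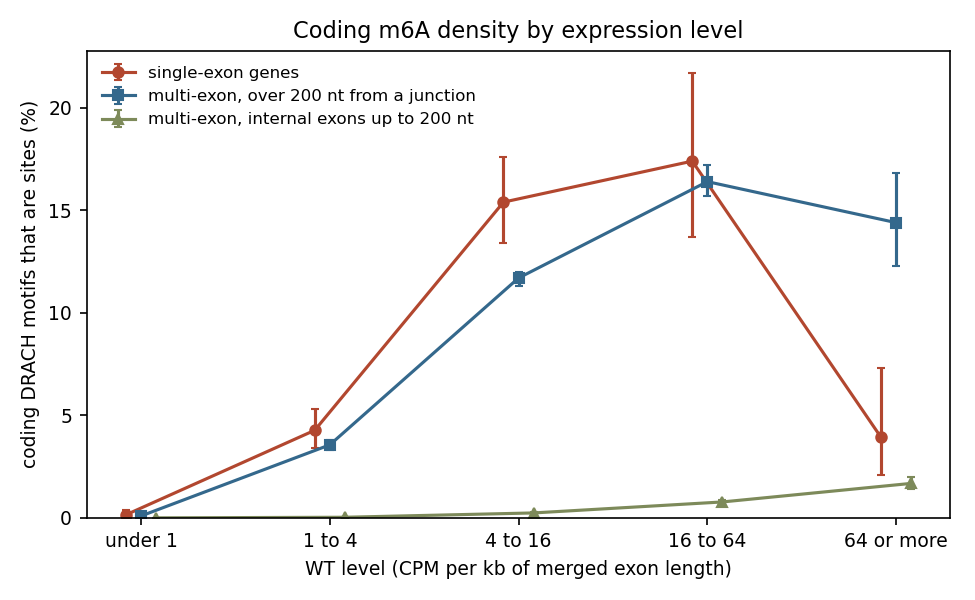
Share of coding DRACH motifs that are m6A sites (y axis, %) by WT level (x axis, CPM per kb of merged exon length) in single-exon genes (red), multi-exon motifs over 200 nt from a junction (blue) and multi-exon internal exons of up to 200 nt (green). Error bars are 95% Wilson intervals. The red curve lies above the blue one up to 64 CPM per kb (17.4% and 16.4% at 16 to 64) and below it in the highest class, and the green curve stays under 2% throughout.

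GGACT and GAACT led the pentamers in both kinds of gene. GGACT was a site at 14.6% of its occurrences in single-exon genes (12.6 to 16.8) and at 10.1% in multi-exon genes (9.82 to 10.3), without matching on level. GAACT followed with 8.06% (6.55 to 9.88) and 6.15% (5.95 to 6.36). GGACA had 5.76% (4.56 to 7.25) and 3.94% (3.79 to 4.09), and GGACC had 5.75% (4.55 to 7.26) and 2.96% (2.83 to 3.11). AGACT, at 5.72% (4.42 to 7.37) and 5.38% (5.2 to 5.56), and AAACT, at 2.16% (1.48 to 3.14) and 2.09% (1.97 to 2.20), had like shares in the 2 kinds of gene. No site in single-exon genes stood at TAACA (625 motifs), TAACC (499 motifs) or TGACC (868 motifs), which for TGACC allows a share of up to 0.441% by the upper Wilson bound.

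Sites were also counted in 20 gene classes with single-exon members. Most of the sites lay outside these classes, which left out 920 of the 1481 single-exon genes, 90 of the 121 genes with sites and 400 of the 571 sites. The SOX transcription factors, which set cell identity in the embryo, had sites in 4 of 7 expressed members, with 32 of 478 motifs as sites (6.69%, 4.78 to 9.30). Sox2 (15 sites) and Sox11 (12) led, and Sox12 held 5. The Frizzled receptors, which bind Wnt ligands, had sites in 3 of 6, with 7.41% of motifs (5.10 to 10.6). They were Fzd7 (17), Fzd10 (9) and Fzd9 (5). JUN family and other immediate early genes, which respond rapidly to growth signals, had the highest share of the larger classes, with sites in 5 of 6 genes and at 11.5% of motifs (8.13 to 16). Ier5l (11), Ier2 (10) and the AP-1 subunit Junb (3) led them. Zinc finger genes had sites in 3 of 8 and at 5.08% of motifs, in Zfp646, Zbtb18 (8 sites) and Zfp830 (5).

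Other classes held few sites. Small GTPases had sites in 3 of 4 expressed members, namely Rap2b (6), Rhob (4) and Arl4c (2). Kelch and BTB genes had sites in 2 of 6, Klhl9 (5) and Kbtbd7 (1). A single member carried sites in several classes, such as Zcchc3 (5) among the retrotransposon Gag-like genes, Purb (5) among the PUR and MEX3 genes, Cebpb (3) of 3 CEBP factors, Pou3f1 (2) and the bHLH inhibitor Id1 (1). No site was found in 6 expressed forkhead genes, whose 356 motifs allow a share of up to 1.07%, or in 3 HSP70 genes. Their median WT levels of 0.111 and 0.782 CPM per kb were low. Of 235 olfactory, vomeronasal and taste receptor genes 2 passed the filter on low counts, and of 22 clustered protocadherin, 17 type I interferon and 58 keratin-associated genes none did.

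Most histone genes had no site although they were expressed. Of 56 expressed single-exon histone genes 5 had sites, and 11 of 804 motifs were sites (1.37%, 0.766 to 2.43) at a median WT level of 8.56 CPM per kb. The leading ones were H1f0 (5 sites), a linker histone, and H2afx (3) and H2afj (3), which encode H2A variants. The 7 mitochondrially encoded genes that passed the filter had no site at 196 motifs (up to 1.92%). Replication-dependent histone mRNAs end in a stem-loop in place of a poly(A) tail, mitochondrial RNA is made away from the nuclear methyltransferase, and the miCLIP2 RNA was poly(A)+. The part of these features in the absence of sites was not tested.

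At a WT level of at least 4 CPM per kb, 72 of 126 single-exon genes had sites. Of the other 54, 36 were histone genes, 7 were mitochondrially encoded and 11 were neither. The most abundant nuclear gene without a site was the metallothionein Mt1, at 155 CPM per kb, which also has spliced coding transcripts. Its chosen single-exon transcript has 27 DRACH motifs and a coding sequence of 111 nt. The level is that of the whole gene and does not tell this transcript from the spliced ones. The next 5 were histone genes, from Hist1h3e (34.1 CPM per kb, 10 motifs) over Hist1h2af, Hist1h2bg and Hist1h4k to Hist1h1a (27.5 CPM per kb, 16 motifs). Sox2 and Pcbp1, at 180 and 172 CPM per kb, were close to Mt1 in level and held 15 and 6 sites. Pcbp1, which encodes a poly(C)-binding protein, was picked for this contrast after its values were seen.

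The share of genes with any site was also counted by level. Among single-exon genes 5 of 159 had a site under 1 CPM per kb, 44 of 106 (41.5%, 32.6 to 51) at 1 to 4, 51 of 83 (61.4%, 50.7 to 71.2) at 4 to 16 and 19 of 33 (57.6%, 40.8 to 72.8) at 16 to 64. Multi-exon genes had 34.6% (32.9 to 36.3), 70.6% (69.3 to 71.9) and 77.4% (75.6 to 79.1) in the last 3 of these classes. From 4 to 64 CPM per kb the share over all single-exon genes was thus not above the multi-exon share. Without mitochondrially encoded and histone genes, 48 single-exon genes with sites and 8 without were left at 4 to 16 CPM per kb. At 16 to 64 CPM per kb 17 with sites and 2 without were left, so the order depended on these genes. Genes with sites had a median transcript length of 2379 nt, 40 DRACH motifs and a WT level of 5.10 CPM per kb. Single-exon genes without sites had a median of 35 motifs and 0.779 CPM per kb.

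The 2 other lists gave the same contrast between internal exons and single-exon genes, here among genes with at least 1 site and without matching on level. A single-exon gene meets this condition by a site in its only exon, whereas a multi-exon gene can meet it without a site in short internal exons. The size of the contrast thus depends in part on the condition. Mouse heart listed 1355 sites in 203 single-exon genes and HEK293T 1869 in 200. The coding share was 14.8% (13.4 to 16.4) in mESCs, 17.0% (15.9 to 18.2) in heart and 26.8% (25.3 to 28.4) in HEK293T. Multi-exon coding motifs over 200 nt from a junction had 12.2%, 17.0% and 16.1%, and those in internal exons of up to 200 nt had 0.557%, 0.386% and 0.838%. The 5′ UTR share of single-exon genes was 4.12% (2.86 to 5.89) in mESCs, 2.99% (2.17 to 4.11) in heart and 12.5% (10.6 to 14.6) in HEK293T. Of the 121 mESC genes 91 also had heart sites, and 331 of the 571 positions (58.0%, 53.9 to 62.0) were listed in heart, against 60.3% (59.6 to 60.9) of the sites in multi-exon genes. Within genes that had heart sites the order was the other way round, with 74.7% (70.5 to 78.5) of 443 single-exon sites and 69.1% (68.5 to 69.7) of multi-exon sites. Sox2, Cldn4, Epop and Sox11 had no heart site, whereas Irf2bpl had 20 and Zfp646 had 19.

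The last comparison asked how these genes differed between Mettl3 KO and WT mESCs. Counts in genes numbered 22746733 to 27254245 per library. In CPM of the unscaled libraries, 9 stem cell markers summed to 4045.0 to 4684.3 CPM in WT and 3162.2 to 3399.0 CPM in KO. Pou5f1 and Nanog lay at 484 to 725 CPM in all 6 libraries, Tdgf1 at 791 to 988 CPM in WT and 206 to 277 CPM in KO, Dppa5a at 697 to 1153.9 and 284 to 340 CPM, and Esrrb at 460 to 602 and 689 to 788 CPM. The 7 fibroblast markers summed to 8.52 to 12.6 CPM in WT and 10.8 to 12.9 CPM in KO, with Lum and Dcn at 0 or near it. Thy1 (1.88 to 2.95 CPM in WT and 5.59 to 7.30 CPM in KO) and Col1a2 (0 to 0.0879 and 0.226 to 0.330 CPM) were higher in KO. Pdgfrb was lower (5.88 to 8.05 and 3.92 to 4.51 CPM), and the groups overlapped for Col1a1, Col3a1, Dcn and Lum. The 7 primitive endoderm markers summed to 6.48 to 9.19 CPM in WT and to 34.9 to 47.3 CPM in KO, of which Dab2 made up 28.3 to 40.4 CPM. Pdgfra and Foxa2 were also higher in KO, and Gata4 was lower (2.81 to 5.01 and 1.13 to 2.05 CPM). The groups overlapped for Gata6, Sox17 and Sox7. The 5 neural markers summed to 69.8 to 99.1 CPM in WT and 88.6 to 101 CPM in KO. Among them, Olig2 stood at up to 0.0405 CPM in WT and 8.75 to 11.2 CPM in KO. The part of these markers in the results was not tested. Mettl3 itself was counted at 24.6 to 28.2 CPM in WT and 17.2 to 24.5 CPM in KO, and counts over a whole gene do not show whether its transcript was intact. Of 4 Y-linked genes, Eif2s3y and Kdm5d had 0 counts in all WT libraries, Ddx3y and Uty had at most 2, and all 4 were expressed in each KO library. The lines thus differed beyond Mettl3, and the effect of the KO cannot be told apart from other differences between them. In bulk RNA, fewer cells of a type and less RNA per cell cannot be told apart.

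More single-exon genes with sites were higher than lower in the KO. By edgeR with an adjusted p threshold of 0.01, 48 of 121 were higher (39.7%) and 6 lower (4.96%), where 17.1% of all 15731 genes tested were higher and 12.6% lower. The ranges of KO and WT did not overlap for 65 genes on the higher side and 13 on the lower side, where 29.2% and 26.9% of all genes tested did so. At least 2-fold changes were called in 30 higher and 5 lower genes, where 10.7% and 4.82% of all genes tested were so called, and the 5 lower genes are near that background. The median log2 fold change was 0.52 (quartiles 0.02 and 1.00), against −0.02 over all genes tested. Per library, the median log2 difference of the 121 genes from the WT mean ran from −0.12 to 0.22 over the WT libraries and from 0.50 to 0.63 over the KO libraries. The KO values all lay above the WT values. With the replicate number as a block the counts were 66 higher and 12 lower, beside 23.5% and 20.0% of all genes. Without KO replicate 1 there were 31 higher genes, beside 11.2% of all genes, and without WT replicate 2 there were 11 lower ones, beside 11% of all genes.

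A higher level in the KO was not limited to genes with sites. Of 270 single-exon genes without sites 88 were higher (32.6%) and 15 lower, with a median log2 fold change of 0.33. Without mitochondrially encoded and histone genes, 85 of 212 genes without sites were higher (40.1%, median 0.62) and 46 of 116 with sites (39.7%, 0.51). Of the 88 higher genes without sites, 66 came from the 154 genes under 1 CPM per kb, where multi-exon genes without sites were also higher in 30.5%. At 1 to 4 CPM per kb, 20 of 44 single-exon genes with sites were higher (45.5%, median log2 fold change 0.77), 15 of 62 without sites (24.2%, 0.02) and 29.3% of multi-exon genes with sites (0.27). At 4 to 16 CPM per kb the shares were 19 of 51 (37.3%, 0.51), 4 of 32 (12.5%, −0.28) and 18.6% (0.04). At 16 to 64 CPM per kb they were 6 of 19 (31.6%, 0.47), 1 of 14 (7.14%, −0.48) and 9.50% (−0.16). Without mitochondrially encoded and histone genes the order held at 1 to 4 CPM per kb, with 20 of 44 with sites and 15 of 53 without (28.3%, 0.06), and not at 4 to 16, with 18 of 48 (37.5%, 0.46) and 3 of 8 (37.5%, 0.25), whereas 2 genes without sites were left at 16 to 64. The differences between these groups were not tested. Histone genes, whose median log2 fold change was −0.28, made up 36 of the 54 genes without sites at 4 or more CPM per kb.

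By number of sites, 6 of 23 single-exon genes with 1 site were higher and 5 lower. With 2 to 4 sites 22 of 48 were higher and 1 lower, and with 5 or more sites 20 of 50 were higher and none lower. Among multi-exon genes, 12.8% were higher and 19.6% lower with 1 site, 15.5% and 14.8% with 2 to 4, and 23.9% and 8.72% with 5 or more, so lower calls were most frequent at 1 site in both kinds of gene. With the replicate block, 2 genes with 5 or more sites were lower. The medians were 0.33, 0.72 and 0.51 on the log2 scale, where those of multi-exon genes were −0.12, −0.03 and 0.14. Of the 121 genes 7 lie on chromosome 8, where 39.7% of multi-exon genes with sites were lower in the KO, and of those 7 genes 1 was higher and none lower.

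**Figure D5:**
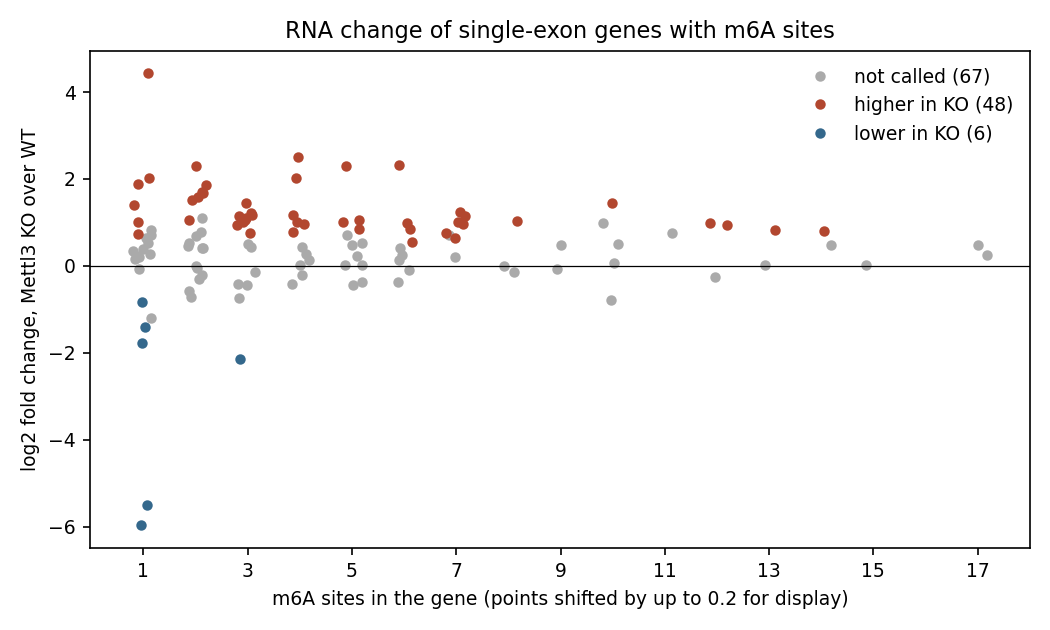
KO over WT log2 fold change (y axis) plotted by the number of m6A sites (x axis) for the 121 single-exon genes with sites, 1 point per gene. Red points were higher and blue points lower in the KO by edgeR at an adjusted p threshold of 0.01. Of the 6 lower genes 5 have 1 site, and no gene with 5 or more sites is among them.

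Among the 12 genes with the most sites, 4 were higher in the KO and none lower, beside 17.1% and 12.6% of all genes tested. With the replicate block 7 were higher and 1 lower, beside 23.5% and 20.0%. A set of 12 genes is too small to tell the lower calls from these shares. Cldn4 stood at 104, 114 and 90.7 CPM in WT and at 199, 180 and 159 CPM in KO. Its log2 fold change was 0.80 (SE 0.12, adjusted p 0.000626). Zfp646 rose from 66.1, 72.2 and 74.2 CPM to 121, 140 and 116 CPM, a log2 fold change of 0.83 (SE 0.11, adjusted p 0.000269). For both genes every KO library lay above every WT library.

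Rbm15b, the methyltransferase subunit, stood at 33.4, 34.5 and 48.4 CPM in WT and at 76.1, 78.6 and 70.5 CPM in KO, a log2 fold change of 0.95 (SE 0.15, adjusted p 0.000577). Fam43a stood at 13.5, 11.2 and 13.6 CPM in WT and at 27.8, 25.6 and 22.3 CPM in KO, a log2 fold change of 0.98 (SE 0.14, adjusted p 0.000419). The groups did not overlap for either gene.

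The other 8 genes did not pass the threshold. Sox2 stood at 347, 388 and 377 CPM in WT and at 379, 389 and 352 CPM in KO, with a log2 fold change of 0.01 (SE 0.11, adjusted p 0.947). The groups of Sox2 overlapped, and so did those of Sephs2, at 0.02 (SE 0.17, adjusted p 0.933). Irf2bpl stood at 67.6, 61.6 and 67.9 CPM in WT and at 101, 98.2 and 75.5 CPM in KO, at an adjusted p of 0.0111 and, with the replicate block, 0.00150. Ier2 stood at 32.2, 30.5 and 54.5 CPM in WT and at 25.8, 22.3 and 20.1 CPM in KO, at a log2 fold change of −0.78 (SE 0.21, adjusted p 0.0125, and 0.00102 with the block), and at −0.46 without WT replicate 3. The ranges of Irf2bpl and Ier2 did not overlap. Epop and Ier5l, at log2 fold changes of 0.47 and 0.75, passed with the replicate block at adjusted p values of 0.00866 and 0.00430 and missed the threshold without it at 0.165 and 0.0529. Epop was at 0.92 without WT replicate 3 and at 0.21 without WT replicate 2. Fzd7 (0.25, adjusted p 0.312) and Sox11 (−0.26, adjusted p 0.0922) passed in neither fit.

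The largest rise among genes with sites and a mean of at least 100 counts was that of Hmga1b, a copy of the chromatin protein gene Hmga1, from 1.04, 0.952 and 1.28 CPM to 26.3, 23 and 21.1 CPM, a log2 fold change of 4.43 (SE 0.20, adjusted p 5.08e-07). Rhob, which encodes a small GTPase of the actin cytoskeleton and held 4 sites, rose from 7.84, 7.27 and 7.37 CPM to 50.3, 39.9 and 37.8 CPM, a log2 fold change of 2.51 (SE 0.15, adjusted p 2.97e-06). The tubulin-folding cofactor gene Tbcc, with 6 coding sites and 21 motifs in its transcript, rose by 2.31 on the log2 scale. The linker histone gene H1f0, with 5 sites, rose from 28.4, 22.1 and 36.4 CPM to 150, 124 and 152 CPM, a log2 fold change of 2.29 (SE 0.17, adjusted p 1.24e-05). Lcmt2, a gene of tRNA modification with 2 sites, rose by 2.30, and Pop7, a ribonuclease P and MRP subunit gene with 4 coding sites, rose by 2.02. For all 6 genes every KO library lay above every WT library.

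Only 4 lower genes reached a mean of 100 counts, and each held 1 site. Gm4737 fell from 21.9, 18.8 and 24.5 CPM to 0.279, 0.203 and 0.554 CPM, a log2 fold change of −5.97 (SE 0.29, adjusted p 1.19e-06). Eif3j2, a copy of the translation initiation factor gene Eif3j1, fell from 9.91, 9.67 and 12.6 CPM to 0.119, 0.203 and 0.369 CPM, a log2 fold change of −5.50 (SE 0.34, adjusted p 3.70e-06). Tmem81 fell by 1.78 and the splicing factor-like gene Zrsr1 by 0.84 on the log2 scale. The values of Hmga1b and Eif3j2 are uncertain, since reads from near-identical copies may be assigned to either locus. The other 2 lower genes were Gm18336 and Mageh1, named because there were few lower genes. The smallest rises among the called genes of that level were those of Imp3, a U3 small nucleolar ribonucleoprotein gene with 6 sites (0.55), and Crebzf, with 7 sites (0.63).

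Within the classes, the values differed from member to member. Among the Frizzled genes Fzd9 rose from 6.14, 5.41 and 5.39 CPM to 12.4, 11.6 and 11.3 CPM, a log2 fold change of 1.06 (SE 0.16, adjusted p 0.000600), and Fzd10 had −0.07 (adjusted p 0.733). Of the 3 small GTPase genes with sites all rose, with log2 fold changes of 0.84 in Rap2b and 1.05 in Arl4c beside Rhob. Zbtb18 (1.04), Zcchc3 (0.85), Cebpb (1.44) and the DNA damage histone gene H2afx (0.94) also rose, each with KO libraries above all WT libraries. Junb stood at 14.0, 6.47 and 16.6 CPM in WT and at 8.28, 7.56 and 6.13 CPM in KO, and its groups overlapped (adjusted p 0.0637). Id1 (−1.20, adjusted p 0.0543), Purb (−0.45, adjusted p 0.0113), H2afj (−0.41, adjusted p 0.0897), Klhl9 (0.47, adjusted p 0.0647) and Kbtbd7 (0.64, adjusted p 0.0548) missed the threshold and passed it with the replicate block. Id1 was at −0.42 without WT replicate 3 and H2afj at −0.22 without WT replicate 1, and Klhl9 was at 0.27 and Kbtbd7 at 0.41 without WT replicate 2. Zfp830, Sox12 and Pou3f1 passed in neither fit, with log2 fold changes of 0.23, 0.02 and 0.52. Of the abundant genes without sites, Mt1 (−0.25), Hist1h3e (−0.20), Hist1h2bg (0.20) and Hist1h4k (−0.24) passed in neither fit. Hist1h2af (−0.68) and Hist1h1a (−0.83) missed the threshold in the main fit and passed it with the block.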

How the data were processed

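The values were used as deposited. The RNA-seq files hold whole-number counts per GENCODE gene, which the authors made with STAR 2.6.1b and HTSeq 0.12.4 on GRCm38. The deposited score of each mESC and HEK293T site is the m6Aboost prediction score, computed by the authors from PureCLIP peaks present in at least 2 replicates. m6Aboost was trained on WT and Mettl3 KO peaks, and its features include the sequence around the A and the transcript region, which can shape the motif and region shares given here. Peaks and counts of genes with near-identical copies depend on how ambiguous reads were placed. The unit of the heart score is unclear and it was not used. The heart list is that of the input labelled 1 µg.

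Transcripts were taken from GENCODE M21 (mouse) and 44 (human), and gene IDs were matched without their version. The longest coding transcript stood for a gene. Of 21943 coding genes 21866 had a transcript sequence, and 38 single-exon genes had no entry in the count files. The WT level is the mean TMM-scaled CPM of the 3 WT libraries per kb of merged exons. Reads that htseq-count assigned to no gene (36.7% to 42.7% of a file's sum) were left out. The KO was tested against WT with edgeR 4.0.16 under R 4.3.3 (filterByExpr, TMM, glmQLFit and glmQLFTest, Benjamini-Hochberg over 15731 genes), and both scripts were tested on simulated data. Sites were handled in Python 3.11.15 with SciPy 1.17.1. Replicates are separate samples in the labels, and since nothing says that they came from separate cultures, p-values measure only the spread between these samples. Deviations of samples with the same replicate number had r = 0.122, 0.464 and 0.303 between WT and KO, and those with unlike numbers −0.342 to 0.11. For replicate 1 the pairing was thus hardly visible, since KO replicate 1 had 0.11 with WT replicate 3. The main fit leaves the numbers out, and the replicate block takes them to pair the samples. Replicates of a group differed by more than sampling noise.

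The members, the gene classes and the tests were chosen with earlier results of these data known. Named genes are the 12 with the most sites, the 6 highest and the 6 lowest by log2 fold change among called genes with sites and a mean of at least 100 counts, the 6 most abundant with at least 3 DRACH motifs and no site (mitochondrial genes left out), and up to 3 with the most sites in each class. Of these, 1 gene is not reported here. Alternatives were DESeq2 1.42.0, other scalings and filters, the replicate block, leaving out replicates, other transcripts, level classes, motifs, scores and the heart list. The level per length of the chosen transcript, the values without chromosome 8, and the exon contexts and level classes without mitochondrial and histone genes were added after seeing the data. miCLIP2 samples of KO cells were not used here.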

Additional observations from a re-analysis of the deposited data

How the results depend on the processing

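The count of 571 sites was 544 with the transcript of the longest coding sequence, 490 in genes whose coding transcripts all have 1 exon, 610 with shared sites kept and 326 at a score of at least 0.7. The DRACH share of 3.03% moved to 1.83% at that score, 3.84% for RRACH, 2.41% without the 10 genes with the most sites and 6.39% for heart. The overall and coding ratios moved to 2.79 and 4.71 without mitochondrial and histone genes, 2.16 and 3.5 without the 10 genes, 2.04 and 3.15 for heart (matched on the mESC level) and 2.91 and 4.49 with the level per length of the chosen transcript. With other transcripts, motifs, scores and level classes the ratios lay within the interval of the value reported, and they were above 1 in every setting run.

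The count of lower genes (6, beside 12.6% of all genes) was 10 with DESeq2 (15.9%), 11 without a filter on low counts (8.48%) and 12 with the replicate block (20.0%). At an adjusted p of 0.05 it was 10, and the share over all genes was not counted there. Leaving out 1 replicate gave 31 to 63 higher genes, beside 11.2% to 18.6% of all genes. It gave 5 to 11 lower genes, beside 5.90% to 14.5%, and medians of 0.44 to 0.67. Scaling by library size only gave a median of 0.62 and moved the median of all genes from −0.02 to 0.08. Of 574 values of 48 named genes, 513 kept direction and call, 37 passed the threshold anew, 8 lost it and 16 changed sign, none of the 16 being called. Without 1 replicate the log2 fold changes of these genes ran from −0.04 to 0.06 (Sox2), −0.11 to 0.26 (Sephs2), −0.57 to 0.07 (Hist1h3e), −0.22 to 0.55 (Hist1h2bg), −0.64 to 0.02 (Hist1h4k), −0.04 to 0.06 (Sox12) and −0.16 to 0.06 (Fzd10), and Fzd10 was at 0.05 by library size only. The cause of these moves was not tested. Site lists without read depth do not show whether a motif without a site was unmethylated or not covered.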
